A study of Mus musculus with 7 samples.

Results

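The ZFP36 family and other RNA decay factors are 7 mouse genes whose proteins bind messenger RNA (mRNA) and shorten its life: Zfp36, Zfp36l1, Zfp36l2, Zc3h12a, Zc3h12d, Rc3h1 and Rc3h2. They were taken as a list by gene name, with earlier results of these data known. All 7 were among the 11721 genes named in at least 1 of the libraries. RNA sequencing had been done on B cells of wild-type C57BL/6 mice, with 1 library in each of 7 conditions. The cells had received anti-IgM together with BAFF, anti-IgM alone or BAFF alone, each for 8 h and for 30 h, or were unstimulated at 0 h. Anti-IgM cross-links the B cell antigen receptor, and BAFF is a survival cytokine of the TNF family. No condition was repeated, so no p-value was computed. All cultured cells had received a stimulus, and the effects of culture time and stimulus cannot be told apart. The labels do not give the number of mice, the organ or the purity of the cells.

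Regulated mRNA decay sets how long the message of a cytokine, a cell cycle gene or an immediate-early gene lasts after a signal. ZFP36 (tristetraprolin) and its paralogs ZFP36L1 and ZFP36L2 bind AU-rich elements in 3′ untranslated regions through paired CCCH zinc fingers and recruit the CCR4-NOT deadenylase, which removes the poly(A) tail. Regnase-1, the product of Zc3h12a, is an endonuclease that cuts stem-loops, and Zc3h12d encodes its relative regnase-4. Roquin-1 and roquin-2, the products of Rc3h1 and Rc3h2, bind stem-loops and also recruit CCR4-NOT. In B cells, ZFP36L1 and ZFP36L2 are known for holding developing cells in quiescence between divisions, and the MALT1 paracaspase, which acts below the antigen receptor, is known to cleave regnase-1.

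The 7 genes share a CCCH zinc finger, in which 3 cysteines and a histidine hold a zinc ion. The coding stretch of the first such finger is shown because all 7 members have it. Its spacing sets the regnases apart from the ZFP36 and roquin families. Capitals mark the 4 zinc-binding codons. The sequences were read from GENCODE M21 transcripts on GRCm38, 5′ to 3′ on the coding strand. In Zfp36, Zfp36l1 and Zfp36l2 the stretch lies in the last of 2 exons, at chr7:28378158-28378217, chr12:80110189-80110248 and chr17:84186668-84186727 on the minus strand. In Rc3h1 it lies at chr1:160950255-160950314 on the plus strand, and in Rc3h2 at chr2:37398264-37398323 on the minus strand. In Zc3h12a (chr4:125120104-125120335, minus strand) and Zc3h12d (chr10:7866325-7867304, plus strand) the stretch is split by an intron, and only its exon bases are shown.
Zfp36: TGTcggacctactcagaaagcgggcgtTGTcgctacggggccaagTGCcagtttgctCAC
Zfp36l1: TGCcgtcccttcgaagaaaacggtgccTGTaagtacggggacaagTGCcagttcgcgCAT
Zfp36l2: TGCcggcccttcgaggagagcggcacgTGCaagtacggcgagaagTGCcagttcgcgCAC
Rc3h1: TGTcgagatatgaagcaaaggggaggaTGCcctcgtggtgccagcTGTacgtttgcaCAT
Rc3h2: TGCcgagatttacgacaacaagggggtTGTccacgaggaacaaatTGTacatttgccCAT
Zc3h12a: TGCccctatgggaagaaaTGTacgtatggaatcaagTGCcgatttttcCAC
Zc3h12d: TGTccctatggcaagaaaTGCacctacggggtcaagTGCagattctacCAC

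The ZFP36 and roquin stretches are 60 bases long, with 8, 5 and 3 residues between the zinc-binding codons. The regnase stretches are 51 bases long, with 5, 5 and 3 residues between them. Zfp36l1 and Zfp36l2 shared 49 of 60 bases in the first finger, and 17 of 20 codons gave the same residue. In their second finger, which the other 2 families lack, they shared 54 of 60 bases, and 20 of 20 codons gave the same residue. Zfp36 stood further off, with 42 bases shared with Zfp36l1 and 40 with Zfp36l2 in the first finger. Zc3h12a and Zc3h12d shared 41 of 51 bases, and Rc3h1 and Rc3h2 shared 39 of 60. Each of the 7 lies at its own locus and was assembled there in every library, and how reads shared by paralogs were placed was not examined.

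The deposited values are FPKM (fragments divided by transcript length in kilobases and by the mapped fragments of the library) of transcripts assembled in each library, with a lower and an upper bound. A gene's value here is the sum over its transcripts of 300 bases or more. The bounds were read as counting error only, so they say nothing of the spread between cultures or animals. Depth, estimated from FPKM, its bounds and transcript length, was between 18630000 and 28480000 fragments per library. Behind the values of the 7 genes stood between 1284 fragments (Zc3h12a with BAFF at 30 h) and 30613 fragments (Zfp36 in the unstimulated library).

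Zfp36 encodes tristetraprolin, itself the product of an immediate-early gene, and was the most abundant of the 7 in the unstimulated library. Its level was 690 FPKM unstimulated. At 8 h Zfp36 stood at 95.2 with both stimuli, 85.4 with anti-IgM and 102 with BAFF. At 30 h Zfp36 stood at 64.9 with both stimuli, 78.6 with anti-IgM and 107 FPKM with BAFF. The unstimulated library thus stood far above the other 6, whose levels lay within 1.65-fold of each other. Among the 10679 genes named in the unstimulated library, 99.3% had a lower FPKM than Zfp36, against 90.5% of those named with both stimuli at 30 h. Fewer cells that carry a transcript and less RNA per cell cannot be told apart in such bulk libraries.

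Zfp36l1 was the most abundant member in all 6 stimulated libraries. It had 433 FPKM unstimulated. At 8 h Zfp36l1 had 288 with both stimuli, 272 with anti-IgM and 207 with BAFF. At 30 h Zfp36l1 had 198 with both stimuli, 226 with anti-IgM and 156 FPKM with BAFF. No 2 of these 7 counting intervals overlapped, and at each time the BAFF library was the lowest.

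Zfp36l2 was the least abundant of its family. It had 75.02 FPKM unstimulated. At 8 h Zfp36l2 had 25.6 with both stimuli, 27.9 with anti-IgM and 55.3 with BAFF. At 30 h Zfp36l2 had 27.0 with both stimuli, 31.96 with anti-IgM and 36.6 FPKM with BAFF. Here BAFF at 8 h came next to the unstimulated library. The 2 lowest neighbours, both stimuli at 30 h and at 8 h, had overlapping intervals, as did anti-IgM at 8 h and both stimuli at 30 h.

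**Figure D1:**
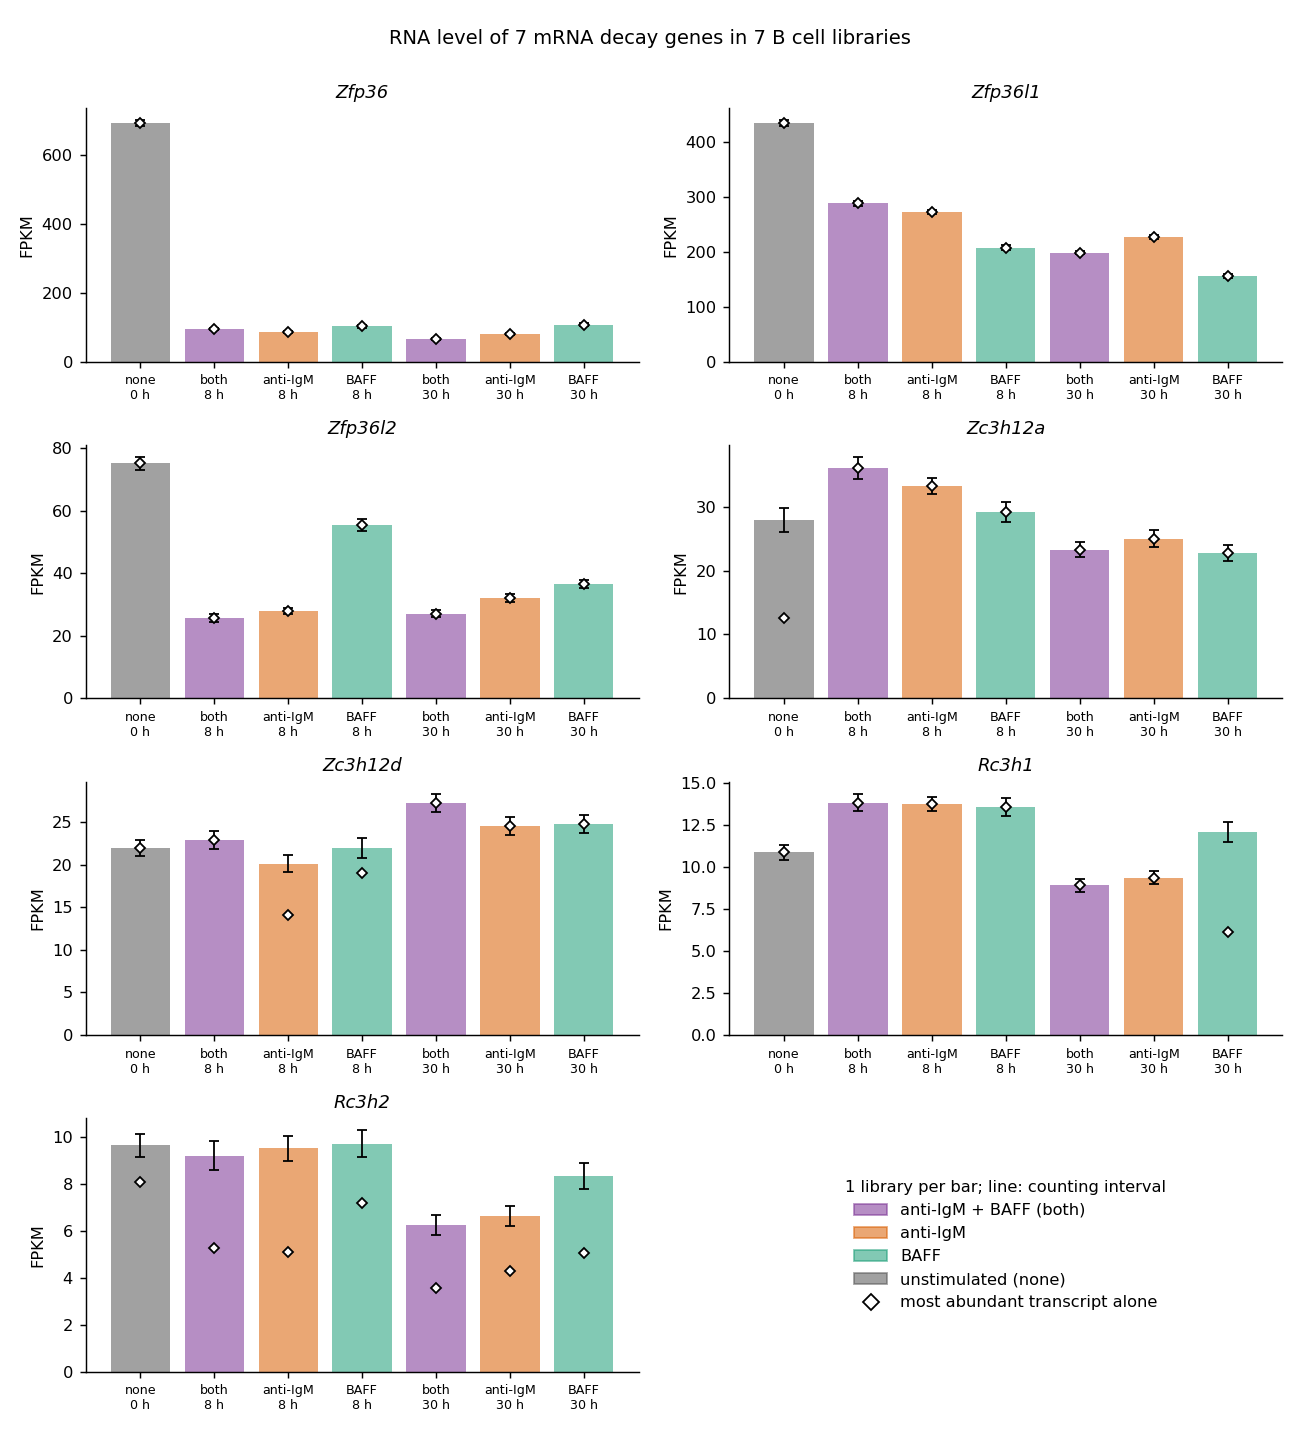
FPKM of the 7 genes (vertical axes, each from 0) in the 7 libraries (horizontal axes, by time). Bars are sums over transcripts, lines the deposited counting intervals and diamonds the most abundant transcript alone; Zfp36 stands at 690 FPKM unstimulated and at 64.9 to 107 FPKM elsewhere, and the diamond of Zc3h12a falls to 12.6 FPKM below a bar of 28.0 FPKM in the unstimulated library.

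The RNA of the ZFP36 family summed to 408 FPKM at 8 h with both stimuli, 386 with anti-IgM and 365 with BAFF, against 1199 FPKM unstimulated. At 30 h the sum was 290 with both stimuli, 337 with anti-IgM and 300 FPKM with BAFF. The make-up differed as well. Zfp36 made up between 22.1% and 35.7% of the family's FPKM in stimulated libraries, lowest with anti-IgM at 8 h and highest with BAFF at 30 h, against 57.6% in the unstimulated library. Zfp36l1 made up between 52.1% (BAFF at 30 h) and 70.6% (anti-IgM at 8 h), against 36.1% unstimulated. The share of Zfp36l2 was highest with BAFF, at 15.1% at 8 h and 12.2% at 30 h, against 6.26% unstimulated.

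**Figure D2:**
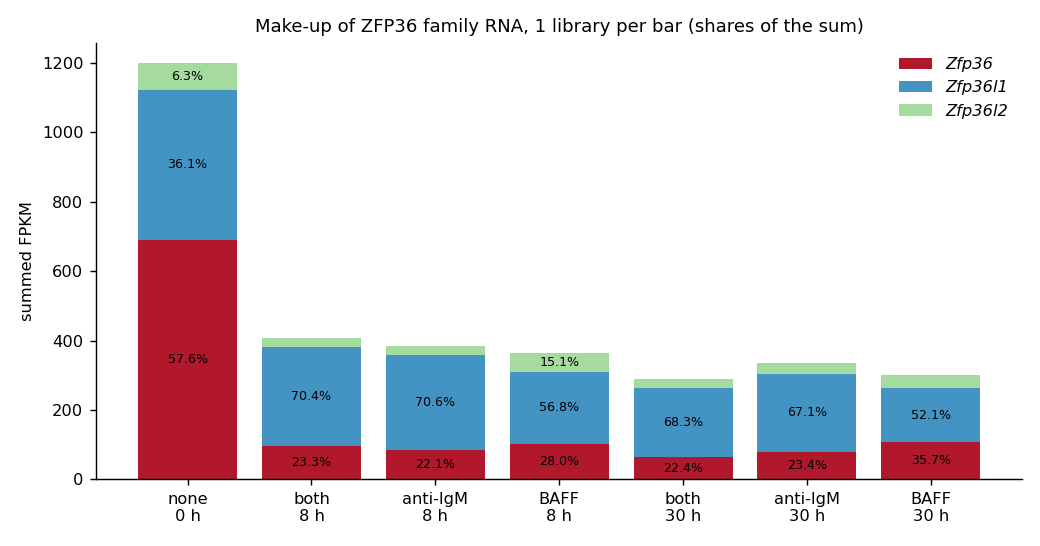
Summed FPKM of Zfp36, Zfp36l1 and Zfp36l2 (vertical axis) in each library (horizontal axis), with each gene's share of the sum written in its segment where there was room. The sum is 1199 FPKM unstimulated and 290 to 408 FPKM elsewhere, and Zfp36l1 is the largest segment in every stimulated library.

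Each stimulated library was compared with the unstimulated one, which all 6 comparisons share. A gene was counted as higher or lower when its log2(FPKM + 1) values lay 1 or more apart, with intervals clear of each other. It also had to be assembled in both libraries, with 1 FPKM or more in at least 1 of them. By this rule 14 of the 42 differences of the 7 genes were counted, all of them lower, and all 14 belonged to the ZFP36 family. Counted as lower were 2 of 7 genes with both stimuli, 2 with anti-IgM and 2 with BAFF at 8 h, where 8.84%, 10.3% and 4.14% of all genes compared were lower. At 30 h, 3 of 7 were lower with both stimuli, 2 with anti-IgM and 3 with BAFF, where 7.68%, 7.24% and 4.02% of all genes compared were lower. No member was counted as higher, where 12.3%, 10.7% and 5.58% of all genes compared were at 8 h and 8.28%, 8.41% and 5.07% at 30 h, in the same order.

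Zfp36 fell in all 6 comparisons. Its log2 difference was -2.85 with both stimuli, -3.00 with anti-IgM and -2.74 with BAFF at 8 h. The 30 h values were -3.39 with both stimuli, -3.12 with anti-IgM and -2.68 with BAFF. As a ratio, its FPKM was 10.6-fold lower with both stimuli at 30 h, with a 95% counting interval of 10.2 to 11.1, and 6.46-fold lower with BAFF at 30 h (6.24 to 6.69). In each comparison between 0.22% and 0.39% of the genes compared had a still lower difference.

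Zfp36l2 fell in 5 of 6 comparisons. Its log2 difference was -1.52 with both stimuli and -1.40 with anti-IgM at 8 h. The 30 h values were -1.44 with both stimuli, -1.21 with anti-IgM and -1.02 with BAFF. With BAFF at 8 h it was -0.43, which was not counted. The call for BAFF at 30 h was lost when 5 in place of 1 was added before taking logarithms (-0.94).

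Zfp36l1 fell with BAFF at 8 h (log2 difference -1.06), with both stimuli at 30 h (-1.12) and with BAFF at 30 h (-1.47). The other 3 differences were below 0 but not counted, at -0.59 with both stimuli and -0.67 with anti-IgM at 8 h and -0.94 with anti-IgM at 30 h. The last was counted when libraries were rescaled by the median of ratios (-1.01) or the upper quartile (-1.03). Those rescalings divide by 0.931 and 0.926 in the unstimulated library, against 0.956 to 1.08 in the others, and no counted member changed direction under them.

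**Figure D3:**
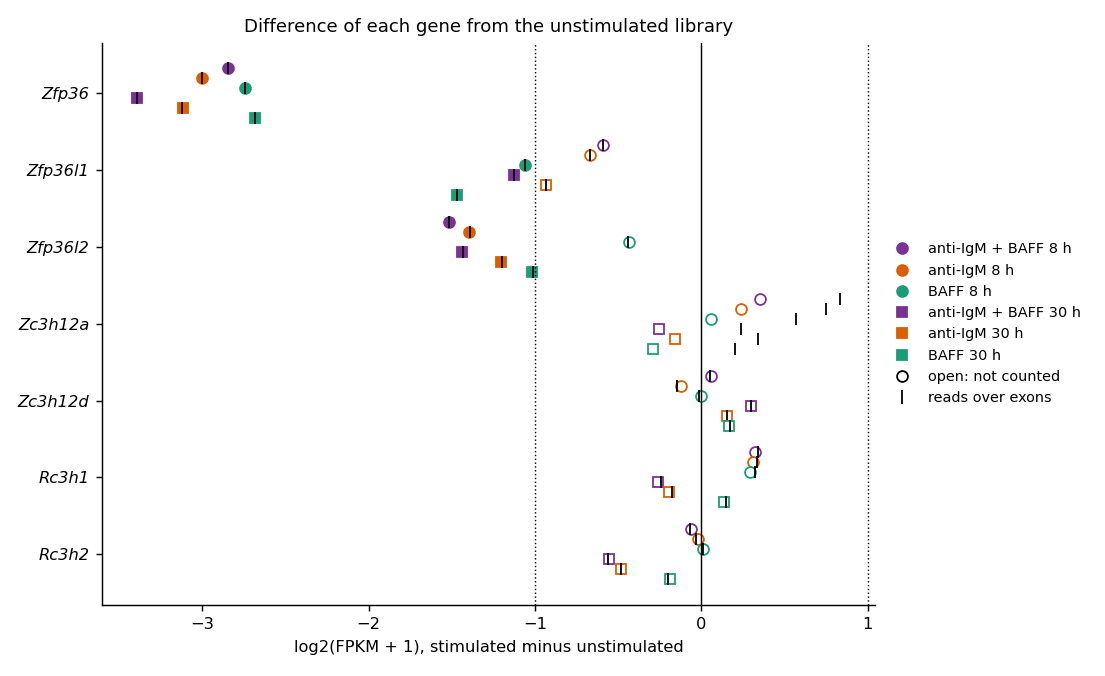
Difference in log2(FPKM + 1), stimulated minus unstimulated (horizontal axis), for the 7 genes (rows) and the 6 stimulated libraries (colours and shapes). Filled symbols were counted, and dotted lines mark a difference of 1 either way. Black ticks, labelled reads over exons, give the difference with each transcript's FPKM weighted by the share of the gene's exon bases it covers. Zfp36 lies between -3.39 and -2.68, and the ticks of Zc3h12a lie to the right of its symbols.

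Zc3h12a encodes regnase-1. It had 28.0 FPKM unstimulated. At 8 h Zc3h12a had 36.1 with both stimuli, 33.2 with anti-IgM and 29.2 with BAFF. At 30 h Zc3h12a had 23.3 with both stimuli, 25.02 with anti-IgM and 22.8 FPKM with BAFF. None of its 6 differences from the unstimulated library was counted, the largest being 0.35 with both stimuli at 8 h. The 3 libraries of 8 h were above the 3 of 30 h.

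The unstimulated value of Zc3h12a rests on transcripts assembled in pieces, unlike those of the other libraries. Only there were 3 transcripts named for the gene, the full one of 6 exons at 12.6 FPKM and 2 partial ones at 9.34 and 6.05 FPKM. The partial transcripts reach into the intron that follows the second exon, and 3 more pieces without a strand, of 587, 671 and 1029 bases, lay inside it at 7.84, 7.50 and 6.55 FPKM. In all, 54.7% of the gene's intron bases were covered by assembled pieces in the unstimulated library, against at most 2.85% in any other. A second measure weighted each transcript's FPKM by the share of the gene's exon bases that it covers. Over exons in this sense, Zc3h12a had 35.2 FPKM with both stimuli, 33.2 with anti-IgM and 29.1 with BAFF at 8 h. Its unstimulated value was 19.3 FPKM. On that measure the log2 differences at 8 h were 0.83, 0.75 and 0.57, and those at 30 h were 0.24, 0.34 and 0.20, so the sign at 30 h was the opposite of that of the summed FPKM. With the most abundant transcript alone, Zc3h12a was counted as higher in all 3 libraries of 8 h, by 1.45 with both stimuli, 1.33 with anti-IgM and 1.15 with BAFF.

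**Figure D4:**
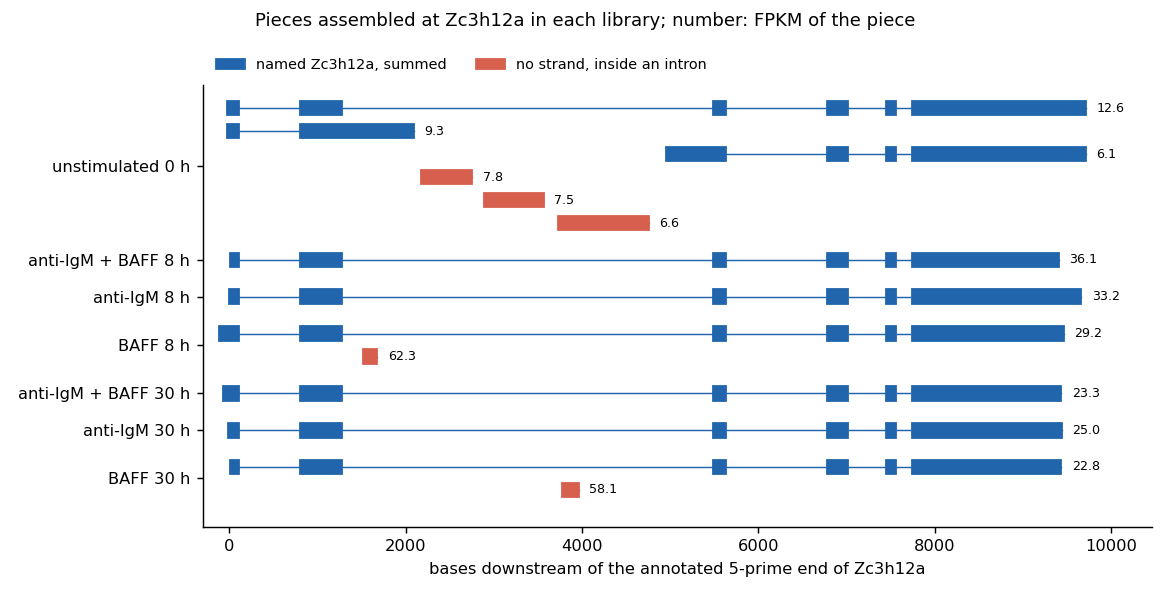
Pieces assembled at Zc3h12a in each library (rows), by distance in bases from the annotated 5′ end (horizontal axis); boxes are exons, and the number beside each piece is its FPKM. The 6 stimulated libraries each have 1 named transcript of 6 exons at 22.8 to 36.1 FPKM, with 1 short intronic piece in each BAFF library, while the unstimulated library has 3 named transcripts and 3 intronic pieces of 6.55 to 7.84 FPKM.

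Zc3h12d, which encodes regnase-4, was the steadiest of the 7, its highest level 1.36-fold above its lowest. It had 21.97 FPKM unstimulated. At 8 h Zc3h12d had 22.9 with both stimuli, 20.2 with anti-IgM and 21.97 with BAFF. At 30 h Zc3h12d had 27.3 with both stimuli, 24.6 with anti-IgM and 24.8 FPKM with BAFF. The intervals of BAFF and anti-IgM at 30 h overlapped, and so did those of the unstimulated library and the 8 h libraries beside it in order. With anti-IgM at 8 h, 14.1 of the 20.2 FPKM came from a transcript of 5 exons that lacked the first exon.

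Rc3h1 encodes roquin-1, a repressor best known for a point mutation that causes lupus-like disease in mice. It had 10.9 FPKM unstimulated. At 8 h Rc3h1 had 13.8 with both stimuli, 13.7 with anti-IgM and 13.6 with BAFF. At 30 h Rc3h1 had 8.89 with both stimuli, 9.36 with anti-IgM and 12.1 FPKM with BAFF. The 3 libraries of 8 h had overlapping intervals and were the highest, and the anti-IgM and combined libraries at 30 h were the lowest.

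Rc3h2 encodes roquin-2, which overlaps in function with roquin-1. It had 9.64 FPKM unstimulated. At 8 h Rc3h2 had 9.21 with both stimuli, 9.52 with anti-IgM and 9.71 with BAFF. At 30 h Rc3h2 had 6.26 with both stimuli, 6.63 with anti-IgM and 8.34 FPKM with BAFF. Neighbours in this order overlapped except across the gap between BAFF and anti-IgM at 30 h. Both roquin genes were therefore lowest when anti-IgM had been present for 30 h, but none of their 12 differences from the unstimulated library reached 1, the largest being -0.55 for Rc3h2 with both stimuli at 30 h.

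The 2 stimuli together were compared with each alone, to ask what the second adds. At 8 h, Zfp36l2 was 2.16-fold lower with both stimuli than with BAFF (25.6 against 55.3 FPKM, log2 difference -1.08). It was the 1 member of 7 counted there, where 6.82% of all genes compared were lower and 12.4% counted either way. The call was lost when 5 was added before taking logarithms (-0.98). None of 7 was counted in both stimuli against anti-IgM at 8 h (6.08% of all genes), both against anti-IgM at 30 h (5.26%) or both against BAFF at 30 h (7.94%). The largest of these other differences was that of Zfp36 with both stimuli against BAFF at 30 h, at -0.71 (64.9 against 107 FPKM).

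Anti-IgM alone against BAFF alone gave no counted member at 8 h, where 13.1% of all genes compared were counted, or at 30 h, where 8.52% were. Zfp36l2 came closest at 8 h, with 27.9 FPKM with anti-IgM against 55.3 FPKM with BAFF (-0.96), and was counted under upper quartile scaling (-1.002). The paralogs did not keep one order. Zfp36l1 had 272 FPKM with anti-IgM against 207 FPKM with BAFF at 8 h, and 226 against 156 FPKM at 30 h. Zfp36 had 85.4 FPKM with anti-IgM against 102 FPKM with BAFF at 8 h, and 78.6 against 107 FPKM at 30 h. For both genes the intervals of the 2 libraries did not overlap at either time.

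From 8 h to 30 h no member was counted, where 12.5% of all genes compared were counted with both stimuli, 13.2% with anti-IgM and 7.67% with BAFF. Zc3h12a had 23.3 FPKM at 30 h against 36.1 FPKM at 8 h with both stimuli (-0.61), the largest of these 21 differences. Rc3h1 had 8.89 FPKM at 30 h against 13.8 FPKM at 8 h with both stimuli (-0.58). Zc3h12d was above its 8 h level at 30 h under each stimulus, by 0.24 with both, 0.27 with anti-IgM and 0.17 with BAFF. In each of these 5 differences the intervals did not overlap, but all fell short of the size that was counted.

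Transcripts of the ZFP36 family and the roquins carry the element that ZFP36 proteins recognise. The consensus 9-base element was searched in the 3′ untranslated regions of GENCODE M21, and the sites below are shown with 8 bases on either side and the element in capitals. Zfp36 (chr7:28376953-28376977, minus strand), Zfp36l1 (chr12:80108169-80108193, minus strand), Zfp36l2 (chr17:84184916-84184940, minus strand), Rc3h1 (chr1:160970045-160970069, plus strand) and Rc3h2 (chr2:37373289-37373313, minus strand) each held 1.
Zfp36: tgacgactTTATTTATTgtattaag
Zfp36l1: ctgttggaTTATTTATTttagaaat
Zfp36l2: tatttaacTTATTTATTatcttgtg
Rc3h1: tttactcaTTATTTATTgagatgag
Rc3h2: aagacattTTATTTATTttactctg

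Of 10127 genes named in these libraries that have an annotated 3′ untranslated region, 7.25% held the 9-base element. Its 7-base core TATTTAT, which lies within it, occurred 3 times each in Zfp36, Zfp36l1, Zfp36l2 and Rc3h2 and 2 times in Rc3h1, and 27.7% of the same genes held at least 1. Neither occurred in Zc3h12a or Zc3h12d. The shares were not adjusted for length, and a longer region has more places for a match. The median region of the same genes was 969 bases. Those of the members were 774 (Zfp36), 1835 (Zfp36l1), 1822 (Zfp36l2), 856 (Zc3h12a), 2327 (Zc3h12d), 7181 (Rc3h1) and 5160 bases (Rc3h2). The 9-base element was present in genes that fell and in the roquin genes, which were not counted. Its part in these levels was not tested. A match is a description of the letters and not evidence of binding.

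Promoters, from 250 bases before to 50 after the start, were searched on both strands for the CArG box bound by serum response factor, the EGR site GCGTGGGCG, the AP-1 site TGANTCA, the cAMP response element TGACGTCA and the NF-kappaB site. The sequences are from the RefSeq table on GRCm38.p6, which matched 6 of the 7 genes (not Zfp36l2). The promoters of Zfp36 (chr7:28379179-28379478, minus strand) and Zfp36l1 (chr12:80112964-80113263, minus strand) are shown because both genes fell, with matches in capitals.
Zfp36: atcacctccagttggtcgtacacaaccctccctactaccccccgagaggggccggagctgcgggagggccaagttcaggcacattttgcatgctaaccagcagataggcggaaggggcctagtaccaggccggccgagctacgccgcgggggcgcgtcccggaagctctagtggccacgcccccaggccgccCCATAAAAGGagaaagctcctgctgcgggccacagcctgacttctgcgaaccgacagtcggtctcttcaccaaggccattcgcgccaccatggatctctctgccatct
Zfp36l1: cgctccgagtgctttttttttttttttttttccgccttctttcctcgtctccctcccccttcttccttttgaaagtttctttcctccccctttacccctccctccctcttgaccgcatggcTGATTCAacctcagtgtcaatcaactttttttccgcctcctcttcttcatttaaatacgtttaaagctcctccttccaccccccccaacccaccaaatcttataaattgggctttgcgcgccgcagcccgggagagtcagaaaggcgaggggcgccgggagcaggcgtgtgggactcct

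The Zfp36 promoter held 1 CArG box, at -58 to -49 from the start, and 1.63% of 32851 promoters held such letters. The Zfp36l1 promoter held 1 AP-1 site at -129 to -123, as did that of Rc3h1 at -133 to -127, and 7.81% of promoters held that site. The promoters of Zc3h12a, Zc3h12d and Rc3h2 held none of the 5 motifs in this window. Of the 14 immediate-early genes listed below, the RefSeq table holds 11. None of the 11 had a CArG box, an EGR site or an AP-1 site in the same window. Sites outside the window were not searched, so these genes may hold such sites elsewhere. An NF-kappaB site was held by 4 of the 11 (Egr2, Fos, Fosb and Nr4a1), against 8.46% of promoters. A cAMP response element was held by 2 (Dusp1 and Ppp1r15a), against 1.79% of promoters.

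Immediate-early genes, which are transcribed within minutes of a signal without new protein, were described beside Zfp36, itself one of them. Of 14 listed, 12 of 14 compared were lower and 1 higher with both stimuli at 8 h, 11 of 14 lower and 1 higher with anti-IgM at 8 h, and 13 of 13 lower with BAFF at 8 h. At 30 h, with 13 compared each, 11 were lower and 1 higher with both stimuli, 10 lower and 1 higher with anti-IgM, and 12 lower with BAFF. Of all genes compared, between 4.02% and 10.3% were lower and between 5.07% and 12.3% higher in these comparisons. Their median log2 difference lay between -2.15 (both stimuli at 8 h) and -3.28 (BAFF at 30 h), where the median of all genes compared lay between 0.02 and 0.12. The largest differences were those of Fos, a subunit of AP-1, with 2.503 FPKM with both stimuli, 3.69 with anti-IgM and 7.22 with BAFF at 8 h, against 627 FPKM unstimulated. Jun, its partner, had 10.4, 9.38 and 12.3 FPKM in the same libraries against 139 FPKM, and Rhob, a small GTPase, had 10.9, 8.77 and 10.8 FPKM against 108 FPKM. Fosb had 1.52 FPKM with both stimuli and 5.33 with anti-IgM at 8 h against 86.1 FPKM, and was not assembled in the other 4. The gene that was higher was Egr2, an antigen receptor response gene named after its values were seen, with 70.2 FPKM with both stimuli and 67.2 FPKM with anti-IgM at 8 h against 24.4 FPKM unstimulated. At 30 h its differences of 1.27 and 1.72 were 0.20 and 0.66 over exons.

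**Figure D5:**
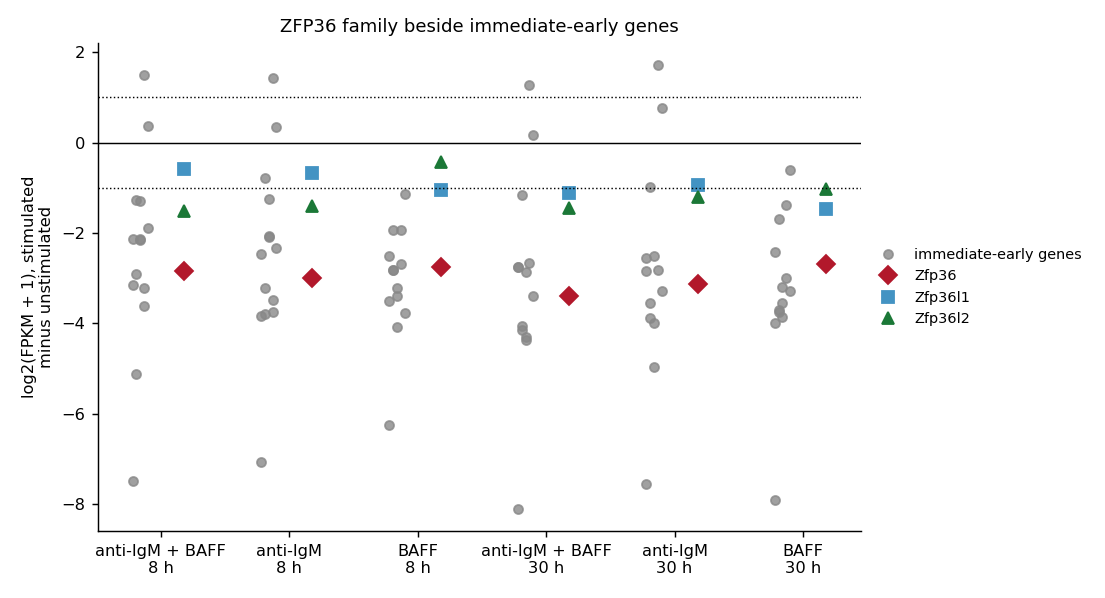
Difference in log2(FPKM + 1), stimulated minus unstimulated (vertical axis), for the immediate-early genes compared (grey points) and the 3 ZFP36 genes (coloured symbols) in the 6 stimulated libraries (horizontal axis). Zfp36, at -2.68 to -3.39, lies among the grey points, whose medians run between -2.15 and -3.28, and Zfp36l1 and Zfp36l2 lie above most of them.

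Genes of deadenylation, the step that ZFP36 proteins and roquins trigger, were described next. Of 18 compared, 2 were lower with both stimuli, 3 with anti-IgM and none with BAFF at 8 h, where 8.84%, 10.3% and 4.14% of all genes compared were lower. At 30 h 1 was lower under each stimulus, where 7.68%, 7.24% and 4.02% of all genes were. With counts this small the list is not set apart from the background. Its median log2 difference lay between -0.14 and 0.25, where that of all genes compared lay between 0.02 and 0.12. Those counted as lower were Btg2, Tob1, Btg1 and Cnot4. Cnot4 was counted with anti-IgM at 30 h (11.2 against 24.1 FPKM, -1.04, but -0.52 over exons). The CCR4-NOT subunit gene Cnot2 fell just short with both stimuli at 30 h (23.4 against 46.9 FPKM). Cnot4 and Cnot2 were named after their values were seen. The antiproliferative gene Btg2 had 64.7 FPKM with both stimuli and 81.9 FPKM with anti-IgM at 8 h, against 174 FPKM unstimulated. Its relative Tob1 had 5.42 and 5.45 FPKM in those libraries against 12.4 FPKM. Btg1 had 179 FPKM with anti-IgM at 8 h against 381 FPKM. Pabpc1, which coats poly(A) tails, had 967 FPKM with both stimuli at 30 h against 439 FPKM unstimulated (1.14).

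RNA exosome genes, which encode the nuclease that degrades RNA from its 3′ end, went the other way. Of 14 compared, 6 were higher with both stimuli and 5 with anti-IgM at 8 h, where 12.3% and 10.7% of all genes compared were higher. Of these, 5 in each comparison were also higher over exons. With BAFF at 8 h 1 was higher, and at 30 h none was with both stimuli, 2 with anti-IgM and 1 with BAFF, where 5.58%, 8.28%, 8.41% and 5.07% of all genes were. None of those 4 held over exons, and no exosome gene was counted as lower. The core subunit Exosc2 had 40.1 FPKM with both stimuli and 39.0 FPKM with anti-IgM at 8 h against 14.4 FPKM unstimulated. Exosc1 had 29.0 and 31.6 FPKM against 11.1 FPKM, and Wdr61, a subunit of the SKI complex that feeds the exosome, had 51.8 and 54.0 FPKM against 21.1 FPKM. Exosc10, the nuclear nuclease subunit, had 102 FPKM with both stimuli at 8 h against 33.1 FPKM, a difference of 1.60 that was 0.66 over exons.

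In the other decay lists most calls, those of Hnrnpab aside, did not hold over exons. In the comparisons with the unstimulated library, between 4.02% and 10.3% of all genes compared were lower and between 5.07% and 12.3% higher. Counts in these lists were too small to set them apart from that background. Of 10 decapping genes, Lsm14a and Lsm1 were the ones counted, and Lsm14a with BAFF at 30 h (14.8 against 59.4 FPKM, -1.93) differed by -0.07 over exons. Of 8 nonsense-mediated decay genes compared, Smg5 was higher with BAFF at 8 h (112 against 29.5 FPKM, 1.89), with 0.39 over exons. Of 8 other AU-rich element binding proteins, Hnrnpab was higher in 4 libraries and most with both stimuli at 30 h (239 against 31.5 FPKM, 2.88), where the difference over exons was 1.07. Hnrnpd, which encodes the decay factor AUF1, was lower in 4 libraries, for example -1.30 with BAFF at 8 h (36.4 against 91.0 FPKM), but differed by 0.07 over exons there. Elavl1, which encodes the stabilising protein HuR, was higher with both stimuli at 8 h (28.7 against 13.7 FPKM, 1.02), with 0.71 over exons.

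Genes that act on the members were also described. Dusp1, a phosphatase that switches off p38, the kinase upstream of ZFP36 phosphorylation, was lower in all 6 libraries, with 11.3 FPKM with both stimuli, 8.999 with anti-IgM and 12.1 with BAFF at 8 h against 91.2 FPKM unstimulated. Mapk14, which encodes p38 alpha, had 13.6 FPKM with both stimuli and 14.0 FPKM with anti-IgM at 8 h against 39.4 FPKM. Mapkapk3, a kinase below p38, had 25.3 and 29.4 FPKM in the same libraries against 11.7 FPKM. Of the 11 genes on this list, 3 were lower and 1 higher with both stimuli and with anti-IgM at 8 h, and 2 lower and 1 higher with BAFF at 8 h. The last was N4bp1, which encodes an RNase of the regnase type (20.2 against 9.28 FPKM, 1.04, but 0.26 over exons). At 30 h 2 were lower with both stimuli, where Malt1, the paracaspase itself, had 26.2 against 59.5 FPKM (-1.15). N4bp1 and Malt1 were named after their values were seen. Dusp1, which is also on the immediate-early list, was the 1 counted with anti-IgM and with BAFF at 30 h. Of all genes compared, 8.84%, 10.3% and 4.14% were lower at 8 h and 7.68%, 7.24% and 4.02% at 30 h, with both stimuli, anti-IgM and BAFF. In the same order, 12.3%, 10.7% and 5.58% were higher at 8 h, so 1 of 11 higher is not set apart.

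Of 14 documented targets of the ZFP36 family, 9 or 10 were compared. At 8 h 5 were lower with both stimuli, 4 with anti-IgM and 3 with BAFF, where 8.84%, 10.3% and 4.14% of all genes compared were lower. None was higher at 8 h, where 12.3%, 10.7% and 5.58% of all genes were. At 30 h 4 were lower with both stimuli, 4 with anti-IgM and 2 with BAFF, where 7.68%, 7.24% and 4.02% of all genes were. Of these, 4, 4 and 2 at 8 h and 2 under each stimulus at 30 h were also lower over exons. Notch1 with anti-IgM at 30 h, named after its values were seen, was the 1 counted as higher (6.83 against 2.62 FPKM, 1.11), where 8.41% of all genes were higher. Fos, in both this list and the immediate-early one, was lower in all 6. Klf2, a factor of B cell quiescence and homing, had 18.8 FPKM with both stimuli, 18.8 with anti-IgM and 58.0 with BAFF at 8 h against 158 FPKM unstimulated. E2f2 had 2.86 FPKM with anti-IgM at 8 h against 24.3 FPKM. Myc was not counted with anti-IgM at 8 h (263 against 143 FPKM, 0.88) but was lower with BAFF at 8 h (64.7 FPKM). At 30 h Myc was lower under each stimulus, with 59.9 FPKM with both stimuli, 61.2 with anti-IgM and 29.8 with BAFF (-2.22).

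Of the 13 documented targets of regnase-1 and roquin, 7 or 8 were compared. At most 2 were higher in a comparison and at most 1 lower, where between 5.07% and 12.3% of all genes compared were higher and between 4.02% and 10.3% lower. Rel, an NF-kappaB subunit, was higher in 5 libraries, with 143 FPKM with both stimuli, 140 with anti-IgM and 85.6 with BAFF at 8 h against 39.2 FPKM unstimulated. Nfkbiz, which encodes an atypical protein of the IkappaB family, was lower in the 3 libraries of 30 h. The difference was largest with BAFF (10.8 against 32.2 FPKM, -1.49), which was the one of the 3 also lower over exons. Ptgs2 was lower with anti-IgM at 8 h (0.583 against 4.35 FPKM, -1.76) and was not assembled in the other 5 stimulated libraries. Il12b was higher with BAFF at 8 h (3.71 against 1.28 FPKM, 1.04).

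Markers of cell types were also described, and some of their sums differed between the libraries. Of 11 macrophage markers, between 5 and 9 were assembled in the stimulated libraries against 10 in the unstimulated one. They summed to 12.1 FPKM with both stimuli, 21.4 with anti-IgM and 29.7 with BAFF at 8 h, and to 54.5, 75.4 and 105 FPKM at 30 h, against 242 FPKM unstimulated. C1qa was not assembled in any library of 8 h and had 40.3 FPKM unstimulated. Not all markers were lower throughout. Emr1 had 48.2 FPKM with BAFF at 30 h against 32.8 FPKM unstimulated, and Lyz2 had 19.8 against 16.3 FPKM. In that comparison 5 of 8 macrophage markers were counted as lower and none as higher, where 4.02% and 5.07% of all genes compared were. Macrophages express Zfp36 too, and the part of these cells in its difference was not tested. The macrophage sum was higher at 30 h than at 8 h under each stimulus. Zfp36 had 64.9 FPKM at 30 h against 95.2 FPKM at 8 h with both stimuli. It had 78.6 against 85.4 FPKM with anti-IgM and 107 against 102 FPKM with BAFF. These comparisons leave out the unstimulated library, and how the macrophage sum and Zfp36 are related was not tested. B cell markers, 6 or 7 of 7 assembled, summed to between 891 and 3059 FPKM in stimulated libraries against 1897 FPKM unstimulated. Cd79a, a defining marker, was assembled only with both stimuli at 8 h and with BAFF at 30 h. Of 8 T cell markers, 2 or 3 were assembled in stimulated libraries against 4 in the unstimulated one. They summed to 48.5 FPKM with both stimuli, 49.9 with anti-IgM and 15.97 with BAFF at 8 h, and to 95.3, 100.01 and 39.5 FPKM at 30 h, against 29.8 FPKM unstimulated. Most of this was Lck, which had 93.8 FPKM with anti-IgM at 30 h against 16.5 FPKM unstimulated, and Cd5 was assembled in all 7 libraries. Cd4 and Cd8a had 4.62 and 3.15 FPKM unstimulated, and among stimulated libraries Cd4 was assembled with BAFF at 30 h alone and Cd8a in none. Cd3g was assembled with anti-IgM at 30 h alone, and Cd3e, Cd3d and Trac in no library. The part of these cells in the members' differences was not tested. None of 6 neutrophil markers was assembled in any library, and the erythroid and platelet markers summed to at most 4.29 FPKM.

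The genes whose pattern over the 7 libraries was most like that of each member were found by Pearson correlation of log2(FPKM + 1) among 3583 genes with 10 FPKM or more in a library and a range of at least 1. The 7 points are single libraries that share the same depth and scaling for both genes, and for Zfp36 the unstimulated library alone sets most of the range. Among the 3 closest to Zfp36 were Dnajb4 (r = 0.99) and Rapgef5 (0.99). Closest to Zfp36l1 were Dusp2 (0.97), Pmaip1 (0.96) and Rnf126 (0.96). Closest to Zfp36l2 were Ssh2 (0.99), Trp53i13 (0.99) and Psd4 (0.98). Atp13a1 (0.97), Noc2l (0.97) and H13 (0.97) were closest to Zc3h12a, and Helq (0.98), Rps27a (0.97) and Rpl15 (0.96) to Zc3h12d. Alms1 (0.99), Snapc4 (0.98) and Zfp566 (0.97) were closest to Rc3h1, and Tmem42 (0.99), Irf7 (0.99) and S100a4 (0.98) to Rc3h2.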

How the data were processed

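Per the submitters' processing notes, reads of poly(A)-selected RNA were handled with CASAVA 1.8.2, TopHat2 2.0.5, Bowtie2 2.0.0.7 and Cufflinks 2.0.2 on mm10. The deposited files give FPKM of transcripts assembled separately in each library, with lower and upper bounds. How strand was treated is not given in the sources used here.

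Transcripts of 300 bases or more were named by exon overlap on the same strand with the gene models of the deposited merged annotation, and their FPKM summed per gene. Shorter pieces, which held between 66.6% and 74.35% of a library's summed FPKM, were left out of this sum. A second measure, over exons, weighted each transcript's FPKM by the share of the gene's exon bases that it covers. It took transcripts of any length on either strand. Reads were not counted anew, so it rests on the same assembly. Libraries were not rescaled. The call rule was applied to all genes of each of 15 comparisons with Python 3.11.15, numpy 2.4.6 and pandas 2.3.3 and checked on simulated data. Each group is 1 library, so no test or p-value is given, and intervals (1.96 standard errors for ratios, 95%) cover counting error only. PCR copies cannot be told from independent molecules. The deposited bounds were read as 2 standard deviations either side.

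The 7 genes and all lists were chosen with earlier results of these data known. Named list genes are the largest counted differences of each list, and others named are said to be chosen later. A few list genes are not reported here. Sequences came from GENCODE M21 and RefSeq on GRCm38.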

Additional observations from a re-analysis of the deposited data

Results flagged for a closer look

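With anti-IgM at 8 h, 3 short pieces of no strand were assembled inside the intron of Zfp36l1, of 144, 180 and 168 bases, with 755, 325 and 334 FPKM. They drew attention because they lie outside the summed gene values and no such piece was assembled in that intron in the other 6 libraries, the unstimulated one included. Together they cover 21.7% of the 2270 intron bases. FPKM of pieces this short rests on few fragments, and they were not added to the 272 FPKM of the gene.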

How the results depend on the processing

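Of the 105 differences of the 7 genes in 15 comparisons, 15 were counted, and none reversed under any alternative run. The number stayed at 15, with the same calls, with 0.1 added before logarithms and with no interval rule. It also stayed with a minimum of 5 FPKM, no minimum, no minimum length, and reads over exons. The lowest member value was 6.26 FPKM (Rc3h2 with both stimuli at 30 h), so neither FPKM minimum could change a call. No shorter piece was named for a member, so the length limit could not either. Each ZFP36 gene had 1 named transcript per library, so reads over exons nearly repeated its summed FPKM (Zfp36 690 and 690 FPKM unstimulated). Agreement in these runs is therefore no independent check of the calls. Of the comparisons of both stimuli with 1, which gave 1 counted difference, adding 5 gave 0 and a 1.5-fold limit gave 2. Anti-IgM against BAFF, with 0 counted, gave 1 at 1.5-fold and 1 under upper quartile scaling. The comparisons of 30 h with 8 h, also with 0, gave 1 with the most abundant transcript (Rc3h1 with BAFF, -1.03) and 1 at 1.5-fold (Zc3h12a with both stimuli, -0.61). In all, 19 were counted with the most abundant transcript, 21 at 1.5-fold, 13 when adding 5, 16 with the median of ratios and 17 with the upper quartile. No paired analysis was possible because each condition has 1 library. For the same reason no library could be left out within a group, and every comparison with the unstimulated condition rests on that 1 library. Counting intervals are narrow at this depth, but the spread between cultures is unknown.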

Other observations

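Assembled transcripts of the members varied in form between libraries. With anti-IgM at 8 h, Zc3h12d had the transcript without the first exon at 14.1 FPKM beside the full one of 6 exons at 6.01 FPKM. With BAFF at 8 h it had the full one at 19.0 FPKM beside one of 5 exons at 2.96 FPKM that skips the second exon. In the other 5 libraries only the form of 6 exons was assembled. Rc3h1 was assembled as 2 transcripts with BAFF at 30 h, at 6.13 and 5.94 FPKM. The 3′ end of the single Zfp36 transcript lay between 28376551 and 28376788 on chromosome 7 of mm10, furthest downstream in the unstimulated library.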
